A study of Drosophila melanogaster with 8 samples.

Results

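The 9 genes described here encode the subunits of succinate dehydrogenase (SdhA, SdhB, SdhC and SdhD), the paralogues SdhAL and SdhBL, citrate synthase (kdn) and the malate dehydrogenases Mdh1 and Mdh2. They were chosen by gene name, and all 9 have a row among the 12051 genes of the deposited table. The RNA came from testis of wild-type Drosophila melanogaster on standard cornmeal food, labelled day 2 to day 7. Ribosomes were precipitated with an antibody to eRpL22-like or to its paralogue eRpL22, both proteins of the large ribosomal subunit, and the study asks which RNAs lie on each of these ribosome populations. The labels list 4 libraries of each pulldown, and 4 of eRpL22-like and 3 of eRpL22 were used. Replicate 4 of eRpL22 was not analysed here. No allele, driver or further treatment is named for either pulldown, no input or mock precipitate is among the samples, and nothing says that replicates came from separate flies, so p-values measure a spread that may be technical.

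Succinate dehydrogenase is the only enzyme shared by the tricarboxylic acid cycle and the respiratory chain, where it is complex II. Its flavoprotein subunit oxidises succinate to fumarate, its iron-sulfur subunit passes on the electrons, and its membrane subunits hand them to ubiquinone. Citrate synthase makes the first product of the cycle and malate dehydrogenase makes the oxaloacetate that it consumes. In fly spermatids the mitochondria fuse into large derivatives that run along the growing sperm tail, and many genes of fly energy metabolism have further copies used in the testis.

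The libraries held 15971685 to 26346787 reads over the listed genes. A value of 3 reads, the most that a count of 0 allows, corresponds to 2.24 to 4.49 normalized reads, which covers counting error only because the reads carry no molecular identifiers. In eRpL22-like replicates 1 and 3, 2923 and 3014 genes were at 0, against 1411 to 2245 in the other 5 libraries. All 11 testis germline markers were in the table, and sperm genes such as Mst87F and dj were abundant in every library. Other markers were not, and bam, a gene of dividing spermatogonia, was at 0 in some libraries. vas was at 0.934 normalized reads in eRpL22-like replicate 3 and aly at 2.73 in eRpL22-like replicate 1, at or below the value of 3 reads. can ranged from 26.2 to 1823 normalized reads over the libraries. Accessory gland markers, of which 5 of 6 were in the table, were also present in every library. Their summed level was 45879, 21047, 42422 and 35618 normalized reads in eRpL22-like replicates 1 to 4. In eRpL22 replicates 1 to 3 it was 43368, 39799 and 26579. Transcript lengths were not used, so read numbers are compared between libraries and not between genes. Values below are normalized reads, and log2 fold changes are of eRpL22-like over eRpL22.

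All 9 genes were present in both pulldowns, their library values overlapped between the pulldowns for every gene, and none was called. Over all tested genes the values did not overlap for 5.14%, so the 0 of 9 here is no result about these genes. Limma with Benjamini-Hochberg adjustment over the 11174 genes tested called 0 of the 9 at an adjusted p of 0.05, as it called 0 of all genes (0%). At an unadjusted p under 0.05 limma also had 0 of the 9, where 459 genes or 4.11% of all genes fell below it. edgeR on whole reads called 0 of the 9 and 0% of all genes, and DESeq2 called 0 of the 9 against 1.46% of the 8759 genes that it gave an adjusted p. In the authors' deposited table, which called 0.174% of its genes, the smallest adjusted p among the 9 was 0.875. Estimated changes were above 0 for 6 genes and below 0 for 3, where 48.8% of all tested genes were above 0. The median log2 fold change was 0.17, beside -0.03 over all tested genes. For some of the 9 genes the sign rested on single libraries, as given below.

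**Figure D1:**
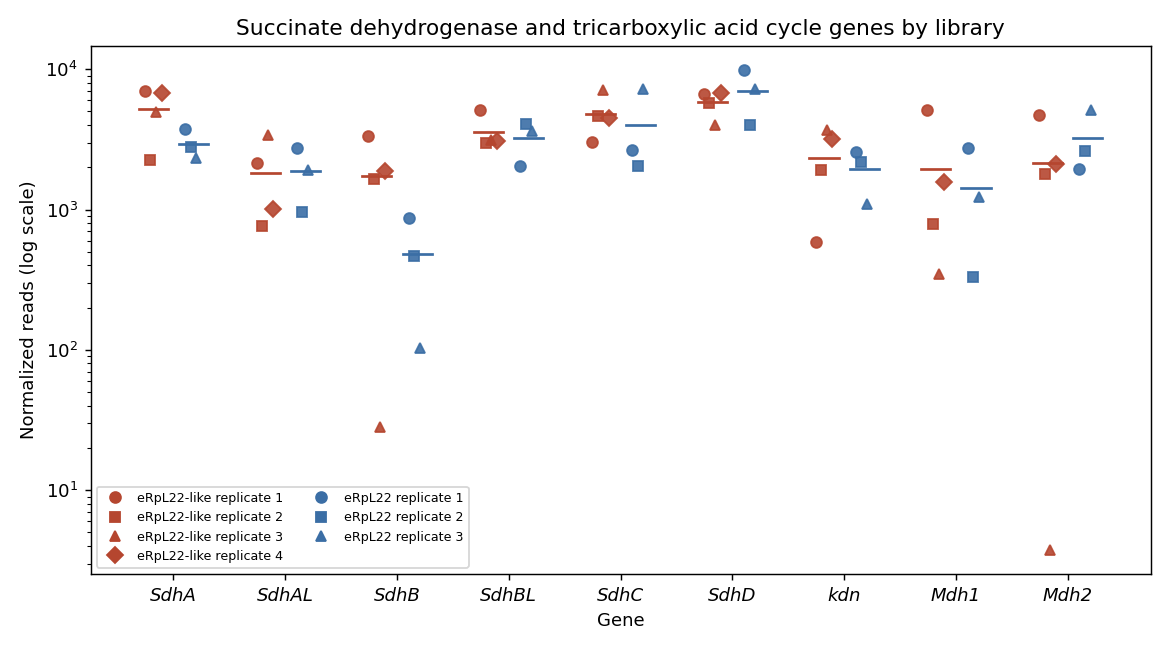
Normalized reads on a log scale for each of the 9 genes, with 1 point per library, eRpL22-like left of eRpL22 and horizontal lines at the arithmetic means. Points of both pulldowns overlap for every gene, and SdhB at 28.0 and Mdh2 at 3.74 in eRpL22-like replicate 3 lie far below the rest.

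SdhA encodes the flavoprotein subunit and had the higher mean in the eRpL22-like pulldown, within the spread of the libraries. It stood at 6972, 2269, 4956 and 6767 normalized reads in eRpL22-like replicates 1 to 4, against 3744, 2774 and 2337 in eRpL22 replicates 1 to 3. Of the eRpL22-like libraries 3 lay above every eRpL22 library, and replicate 2 lay below them all. The means were 5241 ± 2179 (SD, n = 4) with eRpL22-like and 2952 ± 720 (SD, n = 3) with eRpL22, a ratio of 1.78. The log2 fold change came to 0.73 with an SE of 0.46 and a 95% interval of -0.20 to 1.65 (limma adjusted p = 0.945, unadjusted p = 0.119), an interval that reaches 3.15-fold. Without eRpL22-like replicate 2 it was 1.09.

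Muscle, which also sheathes the testis, is rich in mitochondria, and its markers differed between libraries. All 7 muscle markers were in the table and none was at 0 in any library, but Mp20 and wupA had at most 3 reads in 2 libraries each. Their summed level was 10745, 5031, 4658 and 29787 normalized reads in eRpL22-like replicates 1 to 4, against 3487 to 5658 in the eRpL22 libraries. The libraries with the most SdhA, eRpL22-like replicates 1 and 4, had the largest sums. In eRpL22-like replicate 3, however, SdhA at 4956 was above every eRpL22 library while the muscle sum lay within the eRpL22 range. Single markers did not move together. In eRpL22-like replicate 1 the sum was mostly Act57B at 6894 and Tm2 at 2492 normalized reads, while wupA had 1.82 and Mp20 4.55 there, and up was highest in eRpL22 replicate 2 at 2041. For 5 of the 7 markers the log2 fold change was above 0, beside 48.8% of all tested genes, and limma called 0 of the 7. The part of these reads in the SdhA values was not tested, and fewer cells of a type cannot be told apart from less RNA per cell in such bulk samples.

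SdhAL, the paralogue of SdhA, had nearly the same mean in both pulldowns. It stood at 2152, 761, 3380 and 1008 normalized reads in eRpL22-like replicates 1 to 4, against 2727, 965 and 1920 in eRpL22 replicates 1 to 3. High and low libraries occurred in both pulldowns, with means of 1825 ± 1201 (SD, n = 4) with eRpL22-like and 1871 ± 882 (SD, n = 3) with eRpL22. The log2 fold change came to -0.16 with an SE of 0.67 and a 95% interval of -1.52 to 1.20 (limma adjusted p = 0.981). Its sign rested on single libraries, since it was 0.18 without eRpL22 replicate 1, 0.18 without eRpL22-like replicate 2 and 0.044 without eRpL22-like replicate 4.

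SdhB, which encodes the iron-sulfur subunit, varied widely within both pulldowns. It had 3340, 1656, 28.0 and 1886 normalized reads in eRpL22-like replicates 1 to 4, against 876, 469 and 104 in eRpL22 replicates 1 to 3. Of the eRpL22-like libraries 3 lay above all eRpL22 libraries, and replicate 3 lay below all of them. That library's value came from 30 reads, with an exact Poisson interval of 18.9 to 40.0 normalized reads. The median of the other 6 libraries was 1266 normalized reads. The interval covers the counting of reads only, and how many molecules these reads came from was not tested. The means were 1728 ± 1356 (SD, n = 4) with eRpL22-like and 483 ± 386 (SD, n = 3) with eRpL22, a ratio of 3.58.

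The log2 fold change of SdhB was 1.08 with an SE of 1.26 and a 95% interval of -1.49 to 3.65 (limma adjusted p = 0.945). It was 1.84 in the authors' deposited table, with an adjusted p of 0.875. Leaving out eRpL22-like replicate 3 brought it to 2.64, and leaving out eRpL22 replicate 3, the lowest of its pulldown, brought it to 0.21. It was 0.36, 0.69 and 0.63 without eRpL22-like replicates 1, 2 and 4, and 1.74 without eRpL22 replicate 1. SdhB was called in none of these fits.

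SdhBL, the paralogue of SdhB, had the smallest SD of log2 values within pulldowns among the 9 genes, 0.44. It stood at 5114, 2985, 3140 and 3096 normalized reads in eRpL22-like replicates 1 to 4, against 2038, 4074 and 3609 in eRpL22 replicates 1 to 3. The eRpL22-like libraries lay close together apart from replicate 1, and all but that library fell within the range of the eRpL22 libraries. The means were 3584 ± 1022 (SD, n = 4) with eRpL22-like and 3240 ± 1067 (SD, n = 3) with eRpL22. The log2 fold change came to 0.17 with an SE of 0.47 and a 95% interval of -0.78 to 1.12 (limma adjusted p = 0.974), so the interval leaves out changes beyond 2.17-fold upward and below 0.583 of the eRpL22 level. It was -0.14 without eRpL22 replicate 1 and -0.015 without eRpL22-like replicate 1.

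The membrane subunits differed little in mean. SdhC stood at 3042, 4616, 7128 and 4482 normalized reads in eRpL22-like replicates 1 to 4, against 2652, 2035 and 7245 in eRpL22 replicates 1 to 3. Replicate 3 was the highest library of each pulldown, and the means were 4817 ± 1698 (SD, n = 4) with eRpL22-like and 3977 ± 2846 (SD, n = 3) with eRpL22. SdhD stood at 6629, 5736, 3985 and 6803 normalized reads in eRpL22-like replicates 1 to 4, against 9870, 3977 and 7235 in eRpL22 replicates 1 to 3. The eRpL22 libraries of SdhD spanned a wider range than the eRpL22-like ones and enclosed them, with means of 5788 ± 1290 (SD, n = 4) with eRpL22-like and 7027 ± 2952 (SD, n = 3) with eRpL22. The log2 fold change was 0.44 with a 95% interval of -0.50 to 1.37 for SdhC and -0.21 with a 95% interval of -0.97 to 0.54 for SdhD. For SdhC it became 0.99 without eRpL22 replicate 3 and 0.070 without eRpL22 replicate 2, and for SdhD it became 0.079 without eRpL22 replicate 1.

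The citrate synthase gene kdn had 585, 1912, 3656 and 3197 normalized reads in eRpL22-like replicates 1 to 4, against 2555, 2182 and 1101 in eRpL22 replicates 1 to 3. Both the lowest and the highest library belonged to the eRpL22-like pulldown. The means were 2337 ± 1382 (SD, n = 4) with eRpL22-like and 1946 ± 755 (SD, n = 3) with eRpL22, and the log2 fold change came to 0.055 with an SE of 0.65. It changed sign to -0.31 without eRpL22 replicate 3, -0.26 without eRpL22-like replicate 3 and -0.20 without eRpL22-like replicate 4.

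Mdh1 encodes the cytosolic malate dehydrogenase and ranged over 15.4-fold. It had 5077, 783, 346 and 1561 normalized reads in eRpL22-like replicates 1 to 4, against 2732, 329 and 1218 in eRpL22 replicates 1 to 3. Replicate 1 was the highest library of each pulldown, and the ranges covered much the same values. The means were 1942 ± 2150 (SD, n = 4) with eRpL22-like and 1426 ± 1215 (SD, n = 3) with eRpL22. Its log2 fold change of 0.23 with an SE of 0.86 was -0.46 without eRpL22-like replicate 1 and -0.59 without eRpL22 replicate 2.

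Mdh2, which encodes the mitochondrial enzyme of the cycle, was nearly missing from a single library. It had 4727, 1782, 3.74 and 2097 normalized reads in eRpL22-like replicates 1 to 4, against 1947, 2590 and 5151 in eRpL22 replicates 1 to 3. The value in eRpL22-like replicate 3 came from 4 reads, with an exact Poisson interval of 1.02 to 9.57 normalized reads, and the median of the other 6 libraries was 627-fold higher. The remaining 3 eRpL22-like libraries covered much the same range as the eRpL22 libraries. The means were 2152 ± 1948 (SD, n = 4) with eRpL22-like and 3229 ± 1695 (SD, n = 3) with eRpL22.

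The log2 fold change of Mdh2, -2.46 with an SE of 1.26, was the farthest from 0 of the 9 genes (limma adjusted p = 0.945, unadjusted p = 0.0584). It rested on eRpL22-like replicate 3, without which it was -0.19. The authors' deposited table gave -0.59 with an adjusted p of 0.920.

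**Figure D2:**
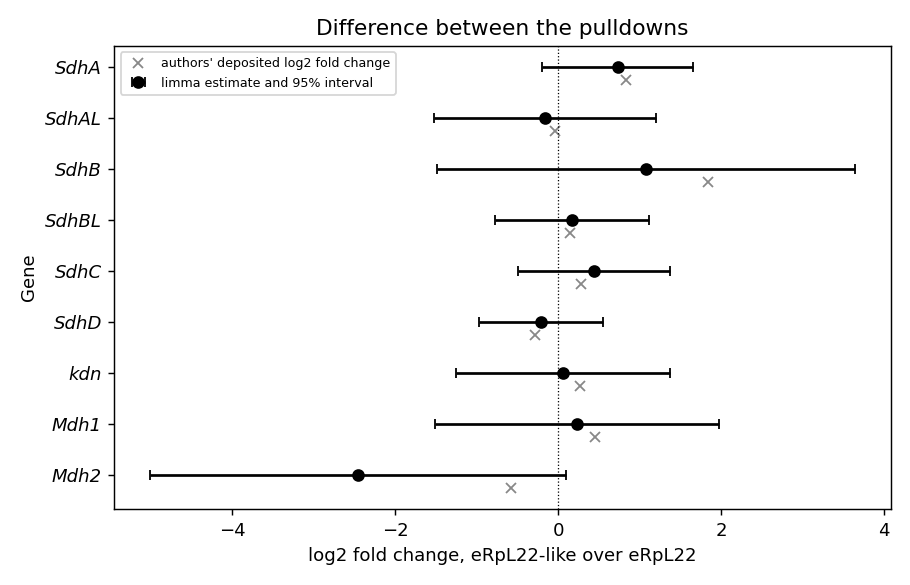
Log2 fold changes of eRpL22-like over eRpL22 for the 9 genes, with points for limma's estimates, bars for 95% intervals and crosses for the authors' deposited values. Every interval includes 0, and those of SdhB (-1.49 to 3.65) and Mdh2 (-5.01 to 0.093) are the widest.

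Within each library the reads of a paralogue were divided by those of its partner, which removes the scaling of the library. SdhAL over SdhA was 0.309, 0.335, 0.682 and 0.149 in eRpL22-like replicates 1 to 4, against 0.728, 0.348 and 0.822 in eRpL22 replicates 1 to 3. The ratio thus tended to be smaller with eRpL22-like, but the ranges overlapped. The mean log2 ratio was -1.64 ± 0.90 (SD, n = 4) with eRpL22-like and -0.75 ± 0.67 (SD, n = 3) with eRpL22. The difference of -0.89 was within the spread (exact two-sided permutation p = 0.143, adjusted p = 0.429 over 3 ratios, smallest possible p = 0.0286), and it ran from -1.27 without eRpL22 replicate 2 to -0.52 without eRpL22-like replicate 4.

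SdhBL over SdhB was 1.53, 1.80, 112 and 1.64 in eRpL22-like replicates 1 to 4, against 2.33, 8.68 and 34.7 in eRpL22 replicates 1 to 3. Apart from replicate 3, the eRpL22-like ratios lay below all eRpL22 ratios, and replicate 3 lay above them. The movement came mostly from SdhB, whose highest value was 119 times its lowest, against 2.51 times for SdhBL. The difference in mean log2 ratio was -0.91 with an SE of 1.88 (exact two-sided permutation p = 0.571, adjusted p = 0.571). It was -2.42 without eRpL22-like replicate 3, 0.068 without eRpL22 replicate 3, -1.88 without eRpL22 replicate 1, and -0.37, -0.45 and -0.41 without eRpL22-like replicates 1, 2 and 4.

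Mdh2 over Mdh1, which sets the mitochondrial against the cytosolic enzyme, was 0.931, 2.27, 0.0108 and 1.34 in eRpL22-like replicates 1 to 4. In eRpL22 replicates 1 to 3 it was 0.713, 7.86 and 4.23. Again eRpL22-like replicate 3 stood apart, and the other ratios overlapped between pulldowns. The difference in mean log2 ratio was -2.69 with an SE of 1.99 (exact two-sided permutation p = 0.286, adjusted p = 0.429), and -1.02 without eRpL22-like replicate 3.

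**Figure D3:**
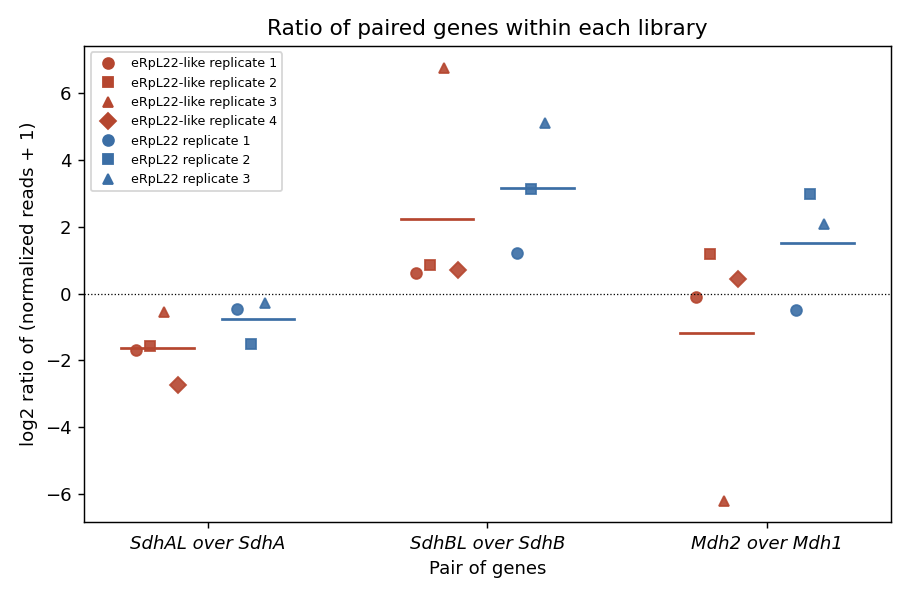
Log2 ratio of normalized reads (each plus 1) of paired genes within each library, with eRpL22-like left of eRpL22 and horizontal lines at the means. In eRpL22-like replicate 3 the log2 ratio of SdhBL over SdhB is the highest, at 6.76, and that of Mdh2 over Mdh1 the lowest, at -6.19.

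The genes were set beside all 3206 genes with a mean of 1000 to under 10000 normalized reads, the class that holds all 9, a description chosen after their values were seen. The SD of log2 values within pulldowns was 3.59 for Mdh2, 2.63 for SdhB, 1.60 for Mdh1, 1.02 for kdn and 0.90 for SdhAL. It was 0.72 for SdhC, 0.62 for SdhA, 0.50 for SdhD and 0.44 for SdhBL, beside a class median of 0.72. Mdh2 thus varied more than 98.5% of the class and SdhB more than 96.1%, whereas SdhBL varied more than 19.2%. A library at least 10-fold below the median of the others occurred for 2 of the 9 genes, SdhB and Mdh2, and for 347 genes or 10.8% of the class. Of these 347 genes, 106 were low in eRpL22-like replicate 3 and 100 in eRpL22-like replicate 1, against 10 to 45 in each of the other 5 libraries.

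**Figure D4:**
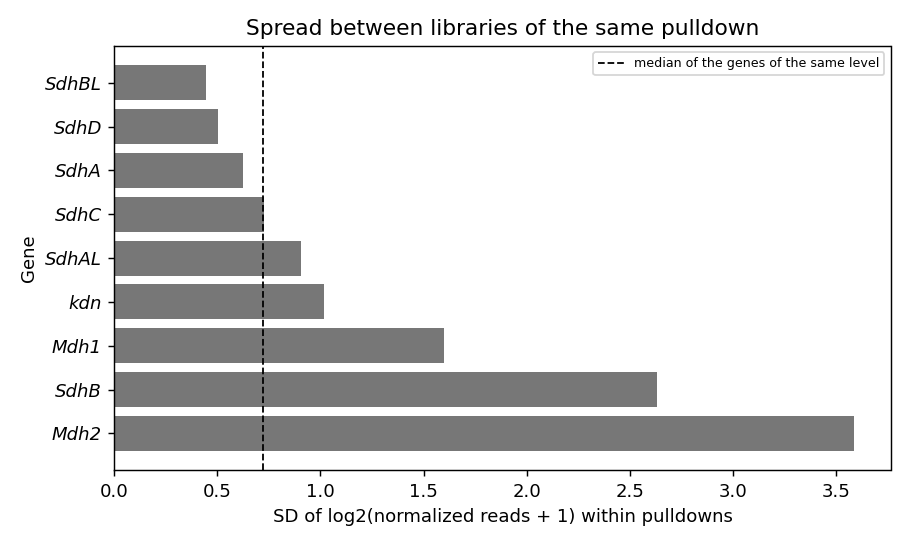
SD of log2(normalized reads + 1) between libraries of the same pulldown for each of the 9 genes, sorted, with a dashed line at the median of the 3206 genes of the same level (0.72). SdhBL has the smallest SD at 0.44, and SdhB and Mdh2 are the most variable at 2.63 and 3.59.

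The 9 genes did not move as a unit from library to library. Over the 7 libraries, which share depth and preparation with each gene of a pair, Pearson's r of log2 values was above 0 for 18 of the 36 pairs and below 0 for 18, with a median of 0.0089. The highest was 0.82 for SdhD with Mdh1 and the lowest -0.67 for SdhBL with kdn. Among the 6 pairs of subunits of succinate dehydrogenase, r ran from -0.59 for SdhB with SdhC to 0.44 for SdhB with SdhD, with 0.27 for SdhA with SdhB. Pearson's r is sensitive to a far lower library such as eRpL22-like replicate 3 for SdhB. Spearman's rank correlation gave -0.39, 0.21 and 0.43 in the same order. SdhA with SdhAL gave 0.34 and SdhB with SdhBL gave 0.12.

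By r over the same 7 libraries, the genes most alike in pattern were sought among 8572 genes with a mean of at least 100. They were CR45549, CG9154 and Rabex-5 for SdhA (r = 0.97, 0.97 and 0.95), and RpL11, eIF4E3 and CR42859 for SdhAL (0.96, 0.96 and 0.95). They were CG18518, CG10973 and CR43634 for SdhB (0.98, 0.97 and 0.96), and Sdic4, Atg3 and SsRbeta for SdhBL (0.99, 0.98 and 0.98). None of the 9 genes was among them. With so few libraries, 11 genes exceeded an r of 0.9 with SdhA, 20 with SdhAL, 77 with SdhB and 49 with SdhBL.

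Further copies of cycle enzymes were paired with a gene by their names in the RefSeq annotation, after the values were seen, and their ranges over the libraries were set side by side. CG6629, annotated as SdhCL, ranged from 2246 to 6047 normalized reads (2.69-fold), and SdhC ranged over 3.56-fold. CG14740, which shares the synonym CS with kdn, ranged from 4822 to 13465 (2.79-fold), and kdn ranged over 6.25-fold. The copy had the narrower range in 8 of 9 pairs, which hold 7 distinct genes because l(1)G0255 (Fum1) stands in 3 of them. SdhAL at 4.44-fold against 3.07-fold for SdhA was the exception. The copy paired with Acon, CG4706 (mAcon2), is listed below among the other cycle enzymes. Its range was 6.34-fold against 10.5-fold for Acon, but both had an SD of log2 values within pulldowns of 0.88. Other further copies were left unpaired, and some of them had wide ranges. Irp-1B ranged from 2.80 to 859, CG1544 from 0 to 936, CG10748 from 107 to 2145 and Irp-1A from 152 to 1644 normalized reads. The rest were narrower, with CG10749 from 5604 to 7810, CG3483 from 3338 to 6833, CG32026 from 5618 to 12228 and Idh from 2409 to 8294. A narrow range was thus not a property of all copies. In the pair of succinyl-CoA synthetase alpha subunits, CG6255 (Scsalpha2) ranged from 10734 to 16404 and Scsalpha (Scsalpha1) from 60.1 to 4307. The copy also had more reads on average in 7 of the 9 pairs, uncorrected for length, and the part of read number in the difference in range was not tested.

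**Figure D5:**
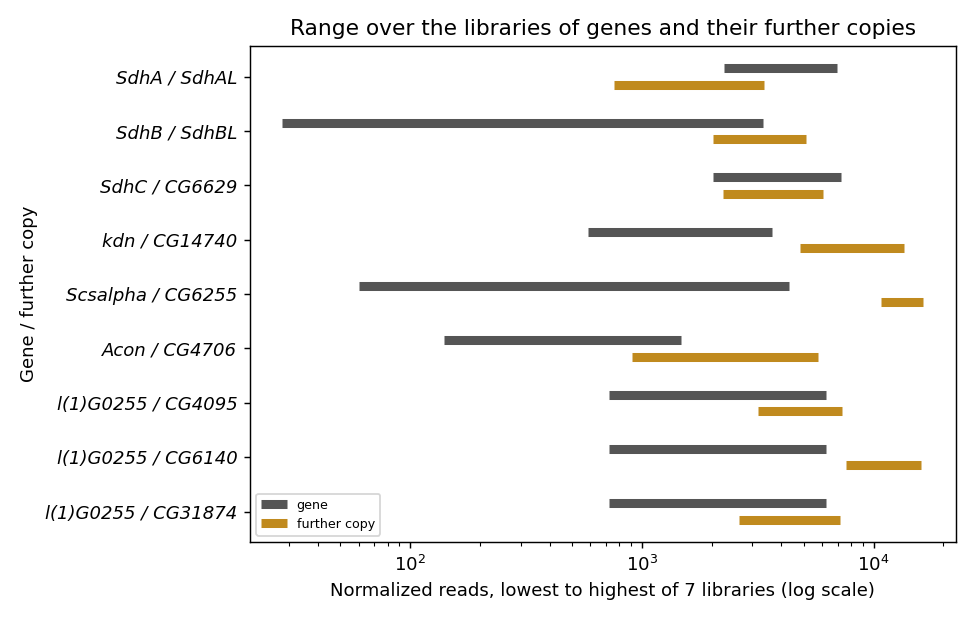
Lowest to highest normalized reads over the 7 libraries, on a log scale, for 9 pairs of a cycle gene (upper bar) and a further copy (lower bar). The lower bar is shorter in 8 of the 9 pairs, 3 of which share l(1)G0255, and the widest bar is that of SdhB, from 28.0 to 3340.

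The other enzymes around the cycle were listed by role, and 40 of 41 were in the table and tested. Limma called 0 of the 40, edgeR called 0 and DESeq2 called 0 of the 39 with an adjusted p, beside the shares of all genes given above. At an unadjusted limma p under 0.05 there were 4 of the 40, where all genes gave 4.11%. The log2 fold change was above 0 for 14, or 35%, and below 0 for 26, where all genes gave 48.8% above 0. The median was -0.41 beside -0.03 over all genes in limma, and -0.21 beside 0.037 in edgeR. Library values did not overlap between pulldowns for 5, or 12.5%, where all genes gave 5.14%.

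Of the 12 other cycle enzymes, 3 had log2 fold changes above 0 and 9 below, with a median of -0.63 in limma and -0.31 in edgeR. skap, the beta subunit of succinyl-CoA synthetase that runs the step before succinate dehydrogenase, had the most reads, at 19160 ± 4958 (SD, n = 4) with eRpL22-like and 26880 ± 4503 (SD, n = 3) with eRpL22. Its log2 fold change of -0.51 had an unadjusted limma p of 0.026 and an adjusted p of 0.945, and its libraries overlapped. CG6439 (Idh3b), a subunit of isocitrate dehydrogenase, was at 4760 ± 1655 (SD, n = 4) with eRpL22-like and 8185 ± 4059 (SD, n = 3) with eRpL22. The mitochondrial aconitase gene Acon had a log2 fold change of -1.70 with an SE of 1.08. l(1)G0156 (Idh3a) had 6856, 1611, 106 and 847 normalized reads in the eRpL22-like libraries, against 2485, 3063 and 2062 in the eRpL22 libraries, and its log2 fold change was -1.32 in limma but -0.10 in edgeR.

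Of the 14 further copies tested, 4 had log2 fold changes above 0 and 10 below, with a median of -0.32 in limma and -0.21 in edgeR. CG6255 was at 13067 ± 2632 (SD, n = 4) with eRpL22-like and 12780 ± 797 (SD, n = 3) with eRpL22, and CG6140, annotated as the fumarase Fum3, at 11219 ± 1078 (SD, n = 4) with eRpL22-like and 12111 ± 4262 (SD, n = 3) with eRpL22. Irp-1B had 8.20, 257, 2.80 and 40.6 normalized reads in the eRpL22-like libraries, against 13.5, 224 and 859 in the eRpL22 libraries, and CG1544 had 1.82, 55.3, 936 and 0 in the eRpL22-like libraries, against 0, 1.02 and 165 in the eRpL22 libraries. Libraries near absence thus occurred in both pulldowns for these low genes. Idh, the NADP-dependent isocitrate dehydrogenase, was named because its libraries did not overlap, at 7103, 8294, 6909 and 5938 normalized reads with eRpL22-like, against 2409, 5220 and 4230 with eRpL22. Its log2 fold change came to 0.90 with an SE of 0.38 (limma adjusted p = 0.945). CG14740 also did not overlap, with 4822 to 9968 normalized reads in the eRpL22-like libraries, against 10240 to 13465 in the eRpL22 libraries.

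The 5 genes listed as assembly factors of succinate dehydrogenase had a median log2 fold change of -2.34 in limma and -0.99 in DESeq2, with 2 above 0 and 3 below. CG14757 was at 5957 ± 2530 (SD, n = 4) with eRpL22-like and 5208 ± 995 (SD, n = 3) with eRpL22, and Sdhaf3 at 2425 ± 1160 (SD, n = 4) with eRpL22-like and 2046 ± 341 (SD, n = 3) with eRpL22. CG34229, with the RefSeq synonym Sdh6, had 2.73, 252, 3.74 and 450 normalized reads in the eRpL22-like libraries, against 1281, 724 and 834 in the eRpL22 libraries, without overlap. Sirup, which has the synonym Sdhaf4 and was named because its libraries did not overlap, had 1361, 2198, 27.1 and 1883 normalized reads with eRpL22-like, against 2222, 3387 and 4347 with eRpL22, and its log2 fold change was -2.34 in limma and -1.27 in edgeR. CG12895 had 1.82, 479, 2.80 and 39.8 normalized reads with eRpL22-like, against 23.9, 89.7 and 666 with eRpL22. The lowest values of these 3 genes lay in eRpL22-like replicates 1 and 3, the libraries with the most genes at 0, and the part of those libraries was not tested.

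The 9 enzymes that feed pyruvate, glutamate or malate into the cycle had a median log2 fold change of 0.017, with 5 above 0 and 4 below. CG11876 (Pdhb), a subunit of pyruvate dehydrogenase, was at 11147 ± 2649 (SD, n = 4) with eRpL22-like and 8580 ± 3372 (SD, n = 3) with eRpL22. bb8, a glutamate dehydrogenase gene, was at 7042 ± 3276 (SD, n = 4) with eRpL22-like and 9490 ± 2752 (SD, n = 3) with eRpL22. Gdh ranged from 122 to 2459 normalized reads with eRpL22-like and from 53.0 to 1778 with eRpL22, and l(1)G0334 (Pdha) from 0 to 1095 with eRpL22-like and from 35.9 to 1157 with eRpL22. The malic enzyme gene Men was named because its libraries did not overlap, at 2128 to 3181 with eRpL22-like and 3385 to 3833 with eRpL22.

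Gene overlap in the RefSeq annotation touched 4 of the 9 genes, SdhA, SdhAL, SdhB and SdhD, and whether counting used strand is not given in the sources used here. PTPMT1, which overlaps SdhD, had 637, 543, 861 and 26.8 normalized reads in eRpL22-like replicates 1 to 4, against 2216, 762 and 36.5 in eRpL22 replicates 1 to 3. CG11257, CG44837 and CG15237, which overlap SdhA, SdhAL and SdhB, had at most 135, 402 and 441 in any library. In eRpL22-like replicate 3 and eRpL22 replicate 3, where SdhB was lowest, CG15237 had 266 and 441, against at most 79.6 in the other libraries. Overlap was judged from the start and end of each gene, without exons or strand, so whether any reads were shared was not tested.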

How the data were processed

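Testis RNA was extracted with Trizol from the precipitates, made into libraries with the Kapa Hyper kit and read as 50 bp single reads, per the labels' protocols. Trimming with Trim Galore and cutadapt, alignment with STAR and the use of DESeq2 are recorded by the submitters' processing notes, without versions. No source used here gives the genome build, annotation or counting tool. Per the file headers, the authors' table gives a log2 fold change, a Wald score that was not used, a p-value, an adjusted p-value and a normalized signal for 7 libraries. 0 other sample columns were left unused. Multiplying each deposited signal value by a constant of its library gave whole reads (100% of values, relative tolerance 1e-06).

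The members and lists were chosen with earlier results of these data known. limma 3.58.1 (R 4.3.3) with an empirical Bayes trend was run, two-sided and with no covariate, on log2(normalized reads + 1) over the 11174 genes whose mean reached 10, which understates changes of low genes. The genes named are the 9 members and, per list, the called genes or else the 2 with the highest mean and the 2 with the largest change. Others are said to be added after their values were seen. edgeR 4.0.16 and DESeq2 1.42.0 were run on the recovered reads as alternatives. Both used these same genes. Ratios were tested by exact permutation over all 35 arrangements of the libraries. The fit was tested on simulated data with a smaller spread than most listed genes had between these libraries, so that test does not give its power here. Gene names come from the table, and current symbols, synonyms and overlaps from RefSeq (Release 6).

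Replicate numbers are shared between the pulldowns, but the labels tie them to no animal or day.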

Additional observations from a re-analysis of the deposited data

Results flagged for a closer look

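In groups of 4 libraries, a value was singled out where its gap to the nearest library, as a share of the group's range on the log2 scale, exceeded Dixon's 95% critical value, which chance gives in about 1 of 20 groups. Of 28 groups examined 4 were singled out. SdhB at 28.0 and Mdh2 at 3.74 normalized reads were the low libraries, both in eRpL22-like replicate 3. SdhBL at 5114 normalized reads in eRpL22-like replicate 1 was the high library of a gene whose other 3 eRpL22-like values lie between 2985 and 3140. The log2 ratio of SdhBL over SdhB was 6.76 in eRpL22-like replicate 3, which follows from its SdhB value.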

How the results depend on the processing

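No alternative called any of the 9 genes or any gene of the 4 pathway lists at an adjusted p under 0.05. Over all genes, 0 were called by limma and by edgeR, 128 by DESeq2 (92 higher and 36 lower with eRpL22-like) and 1 with quantile normalization, and 459 had an unadjusted limma p under 0.05, a threshold added after seeing the data. The log2 fold changes of SdhA, SdhB, SdhC and Mdh2 kept their sign under all 18 alternatives. Not all of these were separate checks. Changing the filter left the estimates as they were, and the replicate block repeated those without eRpL22-like replicate 4. The others changed sign when libraries were left out, with ranges over single omissions of -0.57 to 0.18 for SdhAL, -0.14 to 0.36 for SdhBL, -0.58 to 0.079 for SdhD, -0.31 to 0.62 for kdn and -0.59 to 0.93 for Mdh1. They ranged from 0.55 to 1.09 for SdhA, 0.21 to 2.64 for SdhB, 0.070 to 0.99 for SdhC and -3.51 to -0.19 for Mdh2. The ratio differences ranged from -1.27 to -0.52 for SdhAL over SdhA, -2.42 to 0.068 for SdhBL over SdhB and -3.70 to -1.02 for Mdh2 over Mdh1. Without eRpL22-like replicate 3 and eRpL22 replicate 1 together, chosen after seeing the data, SdhB was at 3.30, SdhBL at -0.085, SdhD at 0.25, kdn at -0.019 and Mdh1 at 1.54. With the replicate block, SdhAL was at 0.044 and kdn at -0.20, the same as without eRpL22-like replicate 4. That library has no eRpL22 library of its number here, so the block takes it out of the comparison. With the block 0 genes were called, with 314 at an unadjusted p under 0.05. Deviations of same-numbered libraries correlated at 0.0071, 0.020 and 0.0099, and not every library correlated best with its own number, so the numbers were not taken to pair the samples. The cause of these changes was not tested. Scaling moved the median over all genes by at most 0.095. With 3 and 4 libraries and the spread above, changes of several fold in SdhB, Mdh1 and Mdh2 were not detectable.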
